A study of Mus musculus with 12 samples.

Results

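The ephrins, semaphorins, Slits and netrins and their Eph, plexin, Robo and Unc5 receptors were followed in mouse haemogenic endothelium, the endothelium from which blood cells emerge, with and without induced SOX7. Members were the protein-coding genes whose symbols belong to these families: Sema3 to Sema7, the plexins, Robo1 to Robo4, Slit1 to Slit3, Unc5a to Unc5d, Ntn1 to Ntn5, the numbered Eph receptors and the ephrins. The rule gave 66 of the 41128 genes in the deposited tables, and 55 of them, among 15347 genes in all, had enough reads to be tested. The cells came from embryonic stem cells derived from the Ainv18 line, in which Sox7, a transcription factor of early endothelium, is under doxycycline (Dox) control. FLK1-positive cells were taken from embryoid bodies at day 3.5 and grown for 48 h in a liquid blast culture with VEGF and IL6, and then for 6, 12 or 24 h with 1 µg/ml Dox or without Dox. Each of the 6 groups held 2 RNA-seq libraries, called here replicates 1 and 2. The untreated cells carried the same inducible Sox7 as the treated cells, and no cells without it were given Dox, so effects of SOX7 and of Dox itself cannot be told apart. The series title puts the question as how SOX7 acts on targets of RUNX1, the factor that drives the step from endothelium to blood.

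These families were first known for steering growing axons, and endothelial cells use the same proteins to position vessels. Ephrins are held at the membrane and bind Eph receptor tyrosine kinases on the neighbouring cell, so that both cells receive a signal. In early vessels ephrin-B2 marks arteries and its receptor EphB4 marks veins. Class 3 semaphorins are secreted and signal through plexins, most with a neuropilin as co-receptor, whereas Sema3e binds plexin D1 directly. The semaphorins of classes 4 to 7 are mostly membrane-bound. Slits are secreted ligands of Robo receptors, of which Robo4 is largely endothelial. Netrins act through DCC, neogenin and the Unc5 receptors, and Unc5b is the Unc5 receptor of endothelial tip cells and arteries.

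Reads per library ran from 13485804 to 35250074. Each group held 1 deep library (at least 27516106 reads) and 1 shallow one (at most 15429846). Sox7 was higher in both Dox libraries than in both untreated libraries at each hour, with log2 fold changes of 2.01, 2.58 and 2.68 at 6, 12 and 24 h. All 10 endothelial markers examined, Cdh5 and Pecam1 among them, were at 1 RPKM or more in every group. The mesenchyme and muscle markers Acta2, Tagln and Col1a1 were also high, and Myh11 was near 0. Over all libraries the 10 mesenchyme and muscle markers summed to 2660 to 3548 RPKM, and the 10 endothelial markers to 417 to 581 RPKM. Such sums depend on the genes listed and give no cell shares. Of 10 pluripotency and endoderm markers, 2 reached 1 RPKM in each group. Of 10 neural markers, Tubb3, Ncam1 and Sox2 reached 1 RPKM, while Sox1, Neurog2 and Pax6 were at or near 0 in every group. With Dox, Map2 was called higher and Ncam1 lower at 12 h, and Map2 higher and Sox2 lower at 24 h, and the part of such cells in the results was not tested. Whether the replicates came from separate cultures is not stated in the labels, and the p-values then reflect the spread of these libraries alone, which may be technical. Tests used the quasi-likelihood method of edgeR on all 12 libraries, p-values were adjusted by Benjamini-Hochberg over the 15347 genes, and a gene was called where that value was under 0.05. Fold changes are log2 values of Dox over untreated unless said otherwise, CPM are read counts scaled to the size of the library, and paired CPM values are given as replicate 1 and replicate 2.

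The promoters of selected members are shown as the 250 bases before the RefSeq start (GRCm38.p6), 5′ to 3′ on the strand of the gene. Such windows were found for 57 of the 66 members. They were searched on both strands for a core of the sequences that SOX proteins bind, which reads ACAAT on one strand and ATTGT on the other, and for a core of RUNX sites, which reads TGTGGT on one strand and ACCACA on the other, and matches are in capitals. Efnb2 and Sema3g are shown because they were higher with Dox at all 3 hours, Ntn4 because it alone among the members higher with Dox held the SOX letters, and Unc5c because it alone among the members lower with Dox held the RUNX letters.
Efnb2, chr8:8661243-8661492, minus strand: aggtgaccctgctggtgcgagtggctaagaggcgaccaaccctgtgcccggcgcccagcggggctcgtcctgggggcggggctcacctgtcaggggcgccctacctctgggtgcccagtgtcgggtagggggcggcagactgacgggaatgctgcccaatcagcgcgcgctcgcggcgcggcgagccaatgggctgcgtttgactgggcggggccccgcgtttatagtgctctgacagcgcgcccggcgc
Sema3g, chr14:31217623-31217872, plus strand: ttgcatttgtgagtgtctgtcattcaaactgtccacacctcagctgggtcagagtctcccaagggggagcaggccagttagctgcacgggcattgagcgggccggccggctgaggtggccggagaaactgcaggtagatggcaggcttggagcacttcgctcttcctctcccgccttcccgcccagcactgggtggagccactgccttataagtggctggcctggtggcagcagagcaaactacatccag
Ntn4, chr10:93640799-93641048, plus strand: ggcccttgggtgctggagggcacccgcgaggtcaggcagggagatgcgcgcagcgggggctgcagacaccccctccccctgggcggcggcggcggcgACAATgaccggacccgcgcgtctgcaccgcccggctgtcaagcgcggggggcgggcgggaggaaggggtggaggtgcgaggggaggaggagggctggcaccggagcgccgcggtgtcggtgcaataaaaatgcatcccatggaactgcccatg
Unc5c, chr3:141465314-141465563, plus strand: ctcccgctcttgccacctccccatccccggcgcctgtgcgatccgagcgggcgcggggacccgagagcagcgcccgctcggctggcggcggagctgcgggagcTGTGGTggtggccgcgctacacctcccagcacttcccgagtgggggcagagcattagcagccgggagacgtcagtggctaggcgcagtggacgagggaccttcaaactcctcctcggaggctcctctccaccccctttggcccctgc
The Ntn4 match starts 153 bases before the RefSeq start and the Unc5c match 147 bases before it. Of the 13 members higher with Dox at 1 or more hours, 12 had a window, of which 1 held ACAAT and 0 held TGTGGT. Of the 5 members lower with Dox, all had a window, of which 0 held ACAAT and 1 held TGTGGT. Among these 5, the Sema4d window belongs to a RefSeq start 37064 bases from the 5′ end of the deposited gene model. It may therefore not be the promoter of the transcripts counted. Among the 30 windows of tested members not called with Dox, 9 held ACAAT and 4 held TGTGGT. Over all 32851 windows of the same length, 27.7% held ACAAT and 14.0% held TGTGGT. The RefSeq starts lie 469, 13, 368 and 0 bases from the 5′ ends of the deposited Efnb2, Sema3g, Ntn4 and Unc5c gene models. Matches so short describe letters in these windows and mark no binding.

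In untreated cells the families were far from equally abundant. Levels between genes are compared as RPKM, which are per length, and are means over the 6 untreated libraries with the range. Of the 66 members, 45 were at 1 RPKM or more and 15 at 10 RPKM or more. The highest was the netrin receptor Unc5b at 106 RPKM (101 to 109), followed by the plexins Plxnd1 at 82.2 RPKM (71.5 to 91.2) and Plxna1 at 59.1 RPKM (52.5 to 65.3). The ranges of Unc5b and Plxnd1 did not overlap, nor did those of Plxnd1 and Plxna1. Next came the artery and vein pair, Ephb4 at 42.6 RPKM (39.0 to 47.2) and Efnb2 at 39.1 RPKM (35.4 to 43.3), whose ranges overlapped. They were followed by Plxnb2 at 30.2 RPKM (22.7 to 38.0) and Efnb1 at 24.5 RPKM (16.6 to 33.7), also with overlapping ranges.

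The summed RPKM of a family was 191 for plexins, 112 for Unc5 receptors, 108 for ephrins, 85.6 for Eph receptors, 64.8 for semaphorins, 18.7 for Slits, 13.5 for Robo receptors and 6.62 for netrins. Each receptor family was led by 1 or a few genes, with Unc5b giving nearly all of the Unc5 sum. Robo4 was at 6.95 RPKM (6.58 to 7.55) and Robo1, the widely expressed Robo receptor, at 5.47 RPKM (5.09 to 5.90), while Robo2 and Robo3 were lower. Slit3 was at 11.9 RPKM (10.4 to 13.3) and Slit2 at 6.63 RPKM (5.18 to 8.26). Among the semaphorins, Sema4c at 10.7 RPKM (9.98 to 11.7) and Sema3e at 10.1 RPKM (8.91 to 11.5) led, with overlapping ranges. Ntn3 at 4.74 RPKM (3.34 to 6.16) and Ntn4 at 1.56 RPKM (0.898 to 2.51) were the leading netrins. The 8 ephrins were all at 1 RPKM or more, against 7 of 14 Eph receptors, 15 of 20 semaphorins, 7 of 9 plexins, 2 of 4 Robo receptors, 2 of 3 Slits, 2 of 4 netrins and 2 of 4 Unc5 receptors. The 11 members not tested were Epha3, Epha5, Epha6, Epha8, Epha10, Ntn5, Plxnb3, Sema4a, Sema4f, Sema5b and Unc5d. None of these had more than 21 reads in a library, and Epha6 had 0 in all 12.

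**Figure D1:**
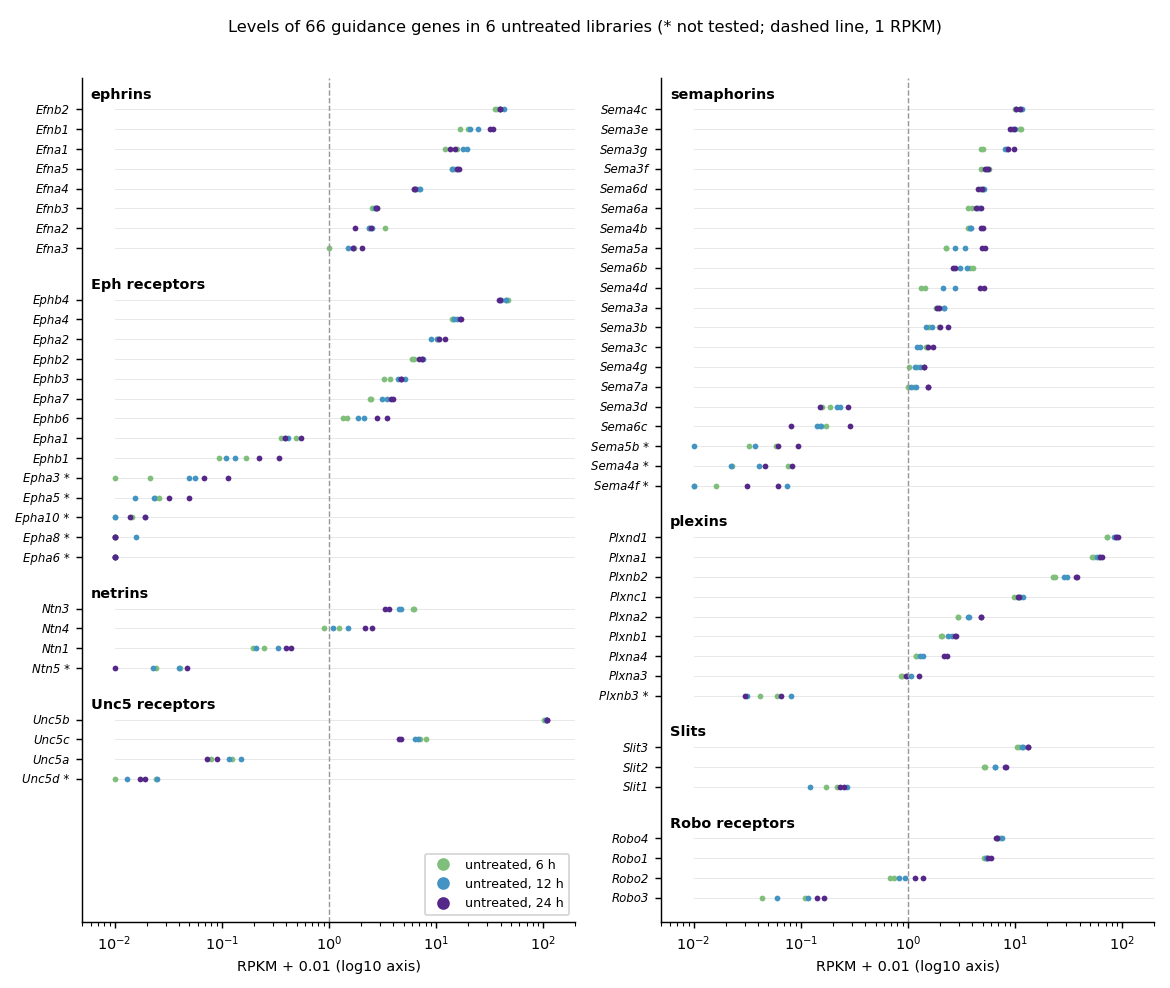
RPKM plus 0.01 on a log10 axis for the 66 members, by family, with 1 point for each of the 6 untreated libraries coloured by hour. Unc5b, Plxnd1 and Plxna1 stand highest, 45 members lie at or above the dashed line at 1 RPKM, and the 11 members marked with an asterisk were not tested.

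With Dox, 18 of the 55 tested members were called at 1 or more hours, 13 of them higher and 5 lower, and no member was called in both directions. The share of all tested genes called at 1 or more hours was not computed. The pooled count therefore has no share beside it and cannot be set against the shares of single hours. At 6 h the called members were 3 higher (Efnb2, Sema6a and Sema3g) and 1 lower (Efnb1), 7.27% of those tested, where 1.54% of all tested genes were called (0.821% higher and 0.717% lower). The count at 12 h was 8 higher and 4 lower, 21.8% of members against 6.76% of all tested genes (3.26% higher and 3.51% lower). At 24 h it was 12 higher and 3 lower, 27.3% of members against 11% of all tested genes (4.50% higher and 6.52% lower). No list or family was tested as a whole, and the same shares of all tested genes stand beside the family counts below. Called changes were small: Sema4d at 24 h passed 2-fold, and no other called member did so at any of the 3 hours. The median log2 fold change over the tested members was -0.020, 0.054 and 0.019 at 6, 12 and 24 h, beside 0.0052, -0.0096 and -0.0086 over all tested genes. The Dox and untreated libraries did not overlap for 33, 31 and 33 of the 55 tested members at 6, 12 and 24 h, where 39.4%, 48.9% and 49.6% of all tested genes did not overlap.

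Split by role, ligands gave 3 higher and 1 lower of 31 tested at 6 h, 5 and 2 at 12 h, and 7 and 2 at 24 h. Receptors gave 0 of 24 at 6 h, 3 higher and 2 lower at 12 h, and 5 higher and 1 lower at 24 h. The shares called were close at the later hours, 22.6% of ligands and 20.8% of receptors at 12 h, and 29% and 25% at 24 h. At 6 h 12.9% of ligands and 1.54% of all tested genes were called, so 0 of 24 receptors does not set receptors apart from all genes. Ligands were not tested against receptors. The 3 members called at all hours, Efnb2, Sema3g and Sema6a, are ligands. The 0 for receptors at 6 h is edgeR's, DESeq2 and limma also called 0, and 4 receptors were at an unadjusted p under 0.05. Of the calls, 4 of 4, 11 of 12 and 15 of 15 had the same sign in the deep and in the shallow libraries, and the exception was Sema5a at 12 h. The calls came from these same libraries, so shared signs were likely from the start and are no separate check. With the deposited RPKM values on the log2(RPKM + 0.1) scale in limma, 1 member was called at 6 h, 3 at 12 h and 10 at 24 h.

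**Figure D2:**
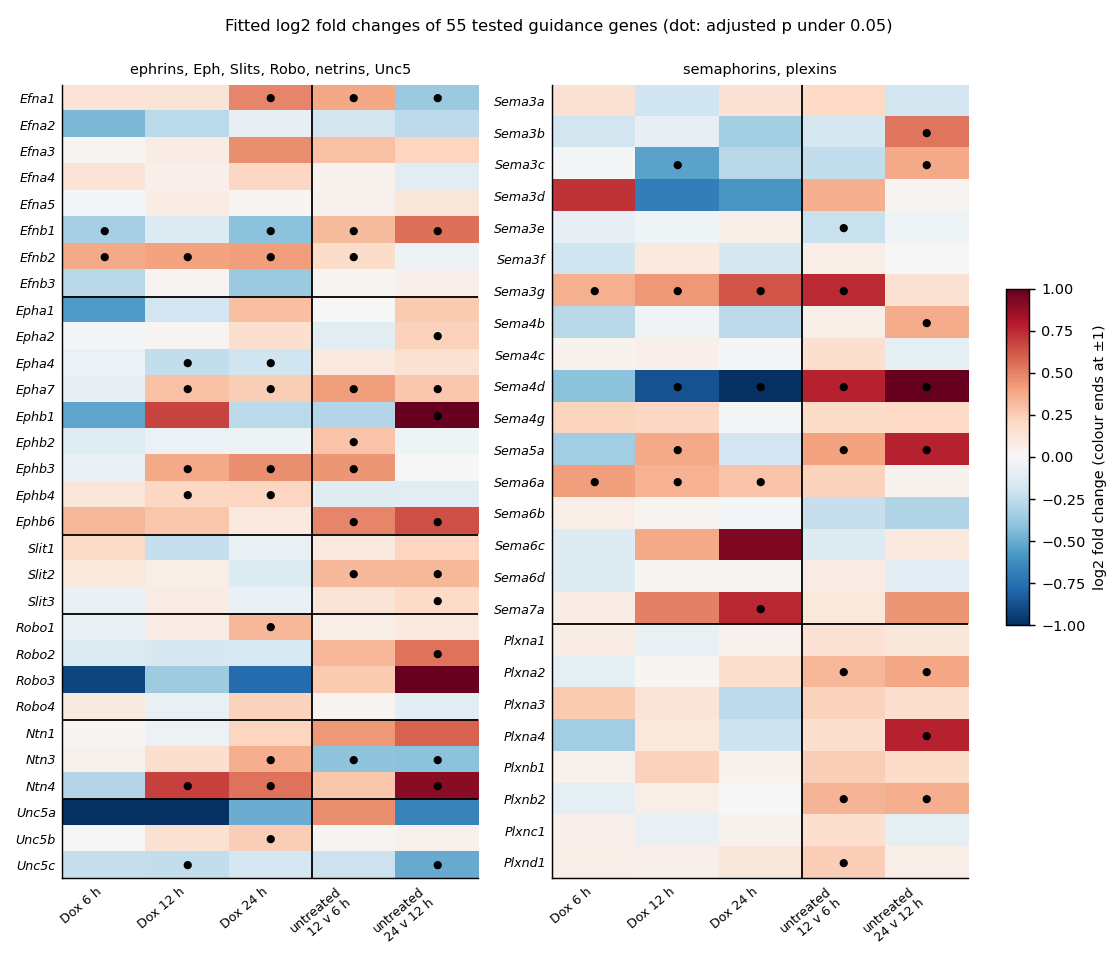
Fitted log2 fold changes (colour, ending at ±1) of the 55 tested members in 3 Dox comparisons and 2 comparisons between hours of untreated cells, with a dot where the adjusted p was under 0.05. Efnb2, Sema3g and Sema6a carry dots in all 3 Dox columns, and no plexin carries a dot in a Dox column.

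Among the ephrins, Efnb2, the ligand that marks arterial endothelium, rose at every hour (ENSMUSG00000001300, chromosome 8, 8617434 to 8660773, minus strand, GRCm38). Its libraries were at 175 and 167 CPM untreated against 214 and 229.7 CPM with Dox at 6 h, at 183 and 203 CPM untreated against 253 and 259 CPM with Dox at 12 h, and at 188 and 187 CPM untreated against 250.3 and 251 CPM with Dox at 24 h. Every Dox library stood above every untreated library of any hour. The log2 fold changes were 0.38 ± 0.055 (SE, adjusted p = 7.3e-05) at 6 h, 0.40 ± 0.054 (SE, adjusted p = 8.5e-06) at 12 h and 0.42 ± 0.055 (SE, adjusted p = 1.3e-06) at 24 h. These 3 calls were met with every alternative tried. Endothelial markers were higher with Efnb2 in treated cells: 2 of 10 endothelial markers were called higher at 6 h, 5 higher and 1 lower at 12 h, and 6 higher at 24 h. Their summed level at 24 h was 417 to 422 RPKM without Dox and 486 to 505 RPKM with it. Of 10 mesenchyme and muscle markers, 0 were called at 6 h by edgeR (DESeq2 0, limma 0, and 2 at an unadjusted p under 0.05), 2 were lower at 12 h (Tagln and Acta2) and 5 lower at 24 h (Col1a1, Col3a1, Lum, Dcn and Pdgfrb), with none higher and a median of -0.28 at 24 h. Their summed level overlapped between the groups at 24 h, at 3459 to 3548 RPKM without Dox and 3474 to 3475 RPKM with it. In RNA from mixed cells, more cells of a type and more RNA per cell cannot be told apart, and the part of these cell types in the rise of Efnb2 and in the other changes was not tested.

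Efnb1, the other transmembrane ephrin of high level here, went the opposite way (ENSMUSG00000031217, chromosome X, 99136130 to 99148991, plus strand). It stood at 62.3 and 73.9 CPM untreated against 56.1 and 51.7 CPM with Dox at 6 h and at 126 and 120.2 CPM untreated against 91.1 and 94.2 CPM with Dox at 24 h, with both Dox libraries below both untreated ones. The 12 h libraries, at 91.2 and 77.8 CPM untreated against 76.9 and 75.4 CPM with Dox, also did not overlap. Its log2 fold changes were -0.33 ± 0.079 (SE, adjusted p = 0.023) at 6 h, -0.14 ± 0.075 (SE, adjusted p = 0.32) at 12 h, which was not called, and -0.41 ± 0.073 (SE, adjusted p = 1.4e-04) at 24 h. The 6 h call was not met without untreated replicate 2 (-0.22) or Dox replicate 2 (-0.27) at adjusted p of 0.47 and 0.40. In untreated cells Efnb1 rose from 6 to 12 h, by 0.31 (adjusted p = 0.0091), and from 12 to 24 h, by 0.55 (adjusted p = 1.8e-06), the first of which was not met without 6 h untreated replicate 1 (0.18) or 12 h untreated replicate 1 (0.20) at adjusted p of 0.35 and 0.19.

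Efna1, a GPI-anchored ephrin that binds EphA receptors, rose at 24 h (ENSMUSG00000027954, chromosome 3, 89271733 to 89281142, minus strand). The values were 31.5 and 24.2 CPM untreated against 28.9 and 33.1 CPM with Dox at 6 h, where the groups overlapped, 35.2 and 38.8 CPM untreated against 39.9 and 41.8 CPM with Dox at 12 h and 27.0 and 30.1 CPM untreated against 39.4 and 41.6 CPM with Dox at 24 h. Fitted fold changes were 0.14 (adjusted p = 0.74), 0.13 (adjusted p = 0.48) and, at 24 h, 0.49 ± 0.10 (SE, adjusted p = 6.6e-04). Efna1, Efna3 and Efna4 lie within 100 kb of each other on chromosome 3, all on the minus strand. At 24 h the fold change of Efna3 was 0.47 (adjusted p = 0.17) and that of Efna4 was 0.20 (adjusted p = 0.40), so neither neighbour was called. The other ephrins, Efna2, Efna5 and Efnb3, were not called at any hour.

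The Eph receptors gave 0 calls of 9 tested at 6 h by edgeR, with 2 at an unadjusted p under 0.05 and 0 called by DESeq2 or limma. At both 12 and 24 h, 3 were higher and 1 lower: Ephb4, Ephb3 and Epha7, and Epha4. Ephb4, the receptor of ephrin-B2 that marks veins, was among the 3 that rose (ENSMUSG00000029710, chromosome 5, 137350109 to 137378669, plus strand). It stood at 227 and 238 CPM untreated against 247 and 257 CPM with Dox at 6 h, 202 and 225 CPM untreated against 245 and 248 CPM with Dox at 12 h and 197 and 199.6 CPM untreated against 224 and 238 CPM with Dox at 24 h. Both Dox libraries were above both untreated ones at each hour, by narrow margins. In log2 terms the changes were 0.12 (adjusted p = 0.43) at 6 h, 0.21 ± 0.055 (SE, adjusted p = 0.019) at 12 h and 0.22 ± 0.055 (SE, adjusted p = 0.0071) at 24 h. Zan lies across part of Ephb4 on the other strand, and the strand setting of the counting is not known. The 12 h call was not met without untreated replicate 1 (0.14), Dox replicate 1 (0.22) or Dox replicate 2 (0.20) at adjusted p of 0.075 to 0.24, nor the 24 h call without untreated replicate 1 (0.20) or Dox replicate 2 (0.18) at adjusted p of 0.089 and 0.12.

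Ephb3, another receptor of B ephrins, and Epha7, a receptor of A ephrins, were the other Eph genes that rose. Ephb3 was at 34.4 and 30.0 CPM untreated against 41.8 and 41.1 CPM with Dox at 12 h and at 31.9 and 32.0 CPM untreated against 38.9 and 50.8 CPM with Dox at 24 h, without overlap. Its fold change was -0.067 (adjusted p = 0.92) at 6 h, 0.38 ± 0.10 (SE, adjusted p = 0.015) at 12 h and 0.47 ± 0.10 (SE, adjusted p = 0.0011) at 24 h. The 12 h call was not met without Dox replicate 1 (0.38) or untreated replicate 2 (0.27) at adjusted p of 0.11 and 0.26, nor the 24 h call without Dox replicate 2 (0.29, adjusted p = 0.071). Epha7 was at 36.7 and 33.4 CPM untreated against 43.9 and 41.1 CPM with Dox at 12 h and at 40.7 and 42.8 CPM untreated against 48.6 and 51.2 CPM with Dox at 24 h. Its fold change was -0.086 (adjusted p = 0.84) at 6 h, 0.29 ± 0.079 (SE, adjusted p = 0.021) at 12 h and 0.25 ± 0.078 (SE, adjusted p = 0.037) at 24 h. These calls were not met without Dox replicate 1 (0.25) or untreated replicate 2 (0.22) at adjusted p of 0.25 and 0.29 at 12 h, or without untreated replicate 1 (0.21), untreated replicate 2 (0.30) or Dox replicate 2 (0.22) at adjusted p of 0.083 to 0.25 at 24 h.

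Epha4, a receptor that binds ephrins of both the A and the B kind, was the Eph receptor that fell (ENSMUSG00000026235, chromosome 1, 77367185 to 77515088, minus strand). Its libraries were at 126 and 123 CPM untreated against 121 and 118 CPM with Dox at 6 h, 128 and 137 CPM untreated against 108 and 117 CPM with Dox at 12 h and 146 and 149 CPM untreated against 126 and 132 CPM with Dox at 24 h. The Dox libraries lay below the untreated ones at all 3 hours. These gave fold changes of -0.060 (adjusted p = 0.82) at 6 h, -0.25 ± 0.057 (SE, adjusted p = 0.0064) at 12 h and -0.20 ± 0.056 (SE, adjusted p = 0.019) at 24 h. The 12 h call was not met without Dox replicate 1 (-0.18) or untreated replicate 2 (-0.19) at adjusted p of 0.22 and 0.14, and the 24 h call was not met without untreated replicate 1 (-0.21), Dox replicate 1 (-0.15), untreated replicate 2 (-0.18) or Dox replicate 2 (-0.22) at adjusted p of 0.060 to 0.19. Epha2, a receptor of ephrin-A1, was not called. It stood at 51.7 and 53.6 CPM untreated against 52.5 and 51.6 CPM with Dox at 6 h, 45.0 and 51.8 CPM untreated against 47.3 and 52.3 CPM with Dox at 12 h and 61.3 and 54.2 CPM untreated against 64.5 and 63.2 CPM with Dox at 24 h, and its groups did not overlap at 24 h. Its fold changes were -0.013 (adjusted p = 0.99), 0.019 (adjusted p = 0.93) and 0.16 (adjusted p = 0.23). The remaining tested receptors, Epha1, Ephb1, Ephb2 and Ephb6, were not called with Dox.

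**Figure D3:**
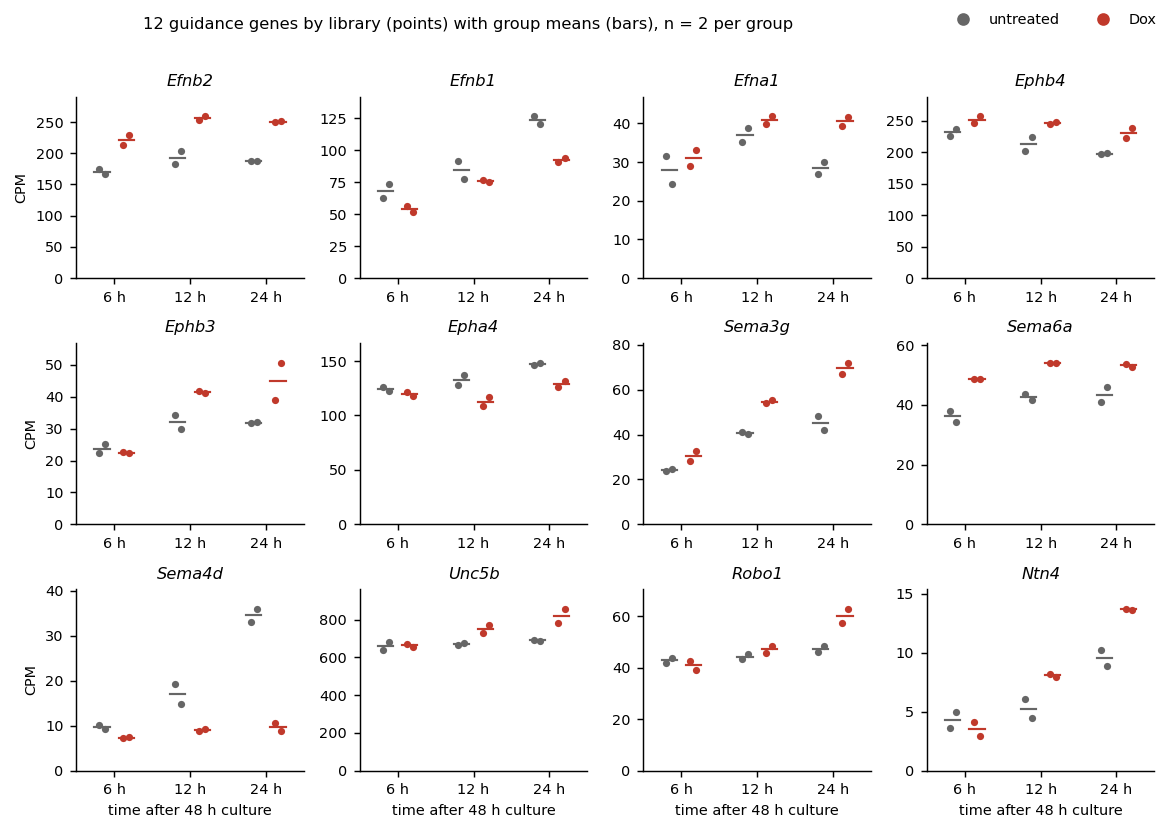
CPM of 12 members at 6, 12 and 24 h, with 1 point for each library (grey, untreated; red, Dox), a bar at each group mean (n = 2) and axes from 0. All Efnb2 points with Dox lie above all untreated points, and Sema4d climbs from 10.0 and 9.26 to 33.0 and 36.0 CPM in untreated cells while it stays at 7.28 to 10.7 CPM with Dox.

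Genes that carry Eph and ephrin signals inside the cell moved in both directions. Of 32 listed effectors 30 were tested, and 0 rose and 1 fell at 6 h, 3 rose and 3 fell at 12 h, and 5 rose and 4 fell at 24 h. The median over the list was 0.015 at 24 h. The Src-like adaptor gene Sla, best known in lymphoid and myeloid cells, fell at each hour, with log2 changes of -0.82 ± 0.15 (SE, adjusted p = 0.0021), -1.12 ± 0.14 (SE, adjusted p = 1.2e-06) and -1.41 ± 0.13 (SE, adjusted p = 2.0e-09). Dok2, a docking protein of blood cells, had -0.78 ± 0.20 (SE, adjusted p = 0.017) at 12 h and -1.21 ± 0.19 (SE, adjusted p = 3.6e-05) at 24 h, and the kinase gene Lyn had -0.42 ± 0.067 (SE, adjusted p = 2.8e-05) at 24 h. Those that rose included Spry4, an inhibitor of receptor kinase signalling, at 0.43 ± 0.10 (SE, adjusted p = 0.0057) at 12 h, and Rgs3, a regulator of G-protein signalling that binds B ephrins, at 0.24 (adjusted p = 0.037) at 12 h and 0.38 ± 0.073 (SE, adjusted p = 4.0e-04) at 24 h. The call of Sla at 6 h was not met without untreated replicate 1 (-0.69) or Dox replicate 2 (-0.69) at adjusted p of 0.16 and 0.16. At 12 h that of Dok2 was not met without untreated replicate 2 (-0.71) or Dox replicate 2 (-0.60) at adjusted p of 0.18 and 0.13, that of Spry4 without untreated replicate 1 (0.36) or Dox replicate 1 (0.29) at adjusted p of 0.069 and 0.26, and that of Rgs3 without untreated replicate 1 (0.19), Dox replicate 1 (0.23) or Dox replicate 2 (0.27) at adjusted p of 0.073 to 0.27. Sla, Dok2 and Lyn are also blood-cell genes, and blood markers moved with them: of 10 tested, 3 fell at 6 h, 3 at 12 h and 10 at 24 h, with none higher. The part of blood cells in these 3 falls was not tested.

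Among the semaphorins, Sema3g rose at every hour (ENSMUSG00000021904, chromosome 14, 31217860 to 31230350, plus strand). Sema3g is a secreted class 3 semaphorin known from arterial endothelium. It stood at 23.9 and 24.5 CPM untreated against 28.2 and 32.9 CPM with Dox at 6 h, 41.0 and 40.1 CPM untreated against 54.2 and 55.2 CPM with Dox at 12 h and 48.5 and 42.2 CPM untreated against 67.2 and 72.1 CPM with Dox at 24 h. Both Dox libraries were above both untreated ones each time. The estimates were 0.35 ± 0.090 (SE, adjusted p = 0.036) at 6 h, 0.43 ± 0.080 (SE, adjusted p = 6.7e-04) at 12 h and 0.63 ± 0.079 (SE, adjusted p = 6.8e-07) at 24 h, and the difference of 0.28 (adjusted p = 0.37) from 6 to 24 h was not called. The 6 h call was not met without untreated replicate 1 (0.32), untreated replicate 2 (0.36) or Dox replicate 2 (0.22) at adjusted p of 0.16 to 0.63.

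Sema6a, a membrane semaphorin that binds class A plexins, also rose at every hour (ENSMUSG00000019647). Its libraries were at 37.9 and 34.3 CPM untreated against 48.8 and 48.5 CPM with Dox at 6 h, 43.7 and 41.8 CPM untreated against 54.2 and 54.0 CPM with Dox at 12 h and 40.8 and 45.9 CPM untreated against 53.8 and 52.6 CPM with Dox at 24 h, with no overlap at any hour. Log2 fold changes came to 0.42 ± 0.077 (SE, adjusted p = 0.0017), 0.34 ± 0.074 (SE, adjusted p = 0.0035) and 0.29 ± 0.075 (SE, adjusted p = 0.0096) in order of hour. The calls were not met without untreated replicate 2 (0.35, adjusted p = 0.072) at 6 h, without untreated replicate 2 (0.31, adjusted p = 0.072) at 12 h, or without untreated replicate 1 (0.21) or Dox replicate 1 (0.28) at adjusted p of 0.20 and 0.064 at 24 h. Its close relative Sema6d was not called. It stood at 54.0 and 55.4 CPM untreated against 51.2 and 49.1 CPM with Dox at 6 h, 58.5 and 57.5 CPM untreated against 60.8 and 55.2 CPM with Dox at 12 h and 55.8 and 51.6 CPM untreated against 54.3 and 53.2 CPM with Dox at 24 h. The Sema6d fold changes were -0.13 (adjusted p = 0.59), 0.0093 (adjusted p = 0.96) and 0.0091 (adjusted p = 0.97).

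Sema4d had the largest fold change with Dox among the called members (ENSMUSG00000021451, chromosome 13, 51701246 to 51793747, minus strand). It encodes the membrane semaphorin CD100, a ligand of plexin B1 that is abundant on lymphocytes and other blood cells. In untreated cells it rose from 10.0 and 9.26 CPM at 6 h to 19.2 and 14.7 CPM at 12 h and 33.0 and 36.0 CPM at 24 h. With Dox it stood at 7.28 and 7.38, 8.89 and 9.30 and 10.7 and 8.90 CPM at the same hours. The groups did not overlap at any hour. The fold changes were -0.41 ± 0.15 (SE, adjusted p = 0.22) at 6 h, which was not called, -0.87 ± 0.13 (SE, adjusted p = 3.2e-05) at 12 h and -1.80 ± 0.12 (SE, adjusted p = 3.7e-12) at 24 h. The last 2 calls were met with every alternative tried.

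Blood markers moved in the same way as Sema4d. The summed RPKM of the 10 blood markers was 40.6 in both untreated libraries at 6 h, 42.7 and 52.1 at 12 h, and 70.0 and 70.3 at 24 h. With Dox it was 29.2 and 29.7 at 6 h, 33.8 and 39.0 at 12 h, and 33.0 and 37.3 at 24 h. All 10 fell with Dox at 24 h, among them Spi1, a myeloid transcription factor, with a log2 change of -1.82 ± 0.17 (SE, adjusted p = 1.5e-09), and Ptprc, the pan-leukocyte gene CD45, with -1.57 ± 0.18 (SE, adjusted p = 2.1e-07). Ptprc was at 0.736 RPKM without Dox at 24 h and at 0.244 RPKM with it, and no marker of the list was at 0 in a group mean. The part of blood cells in the Sema4d result was not tested.

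**Figure D4:**
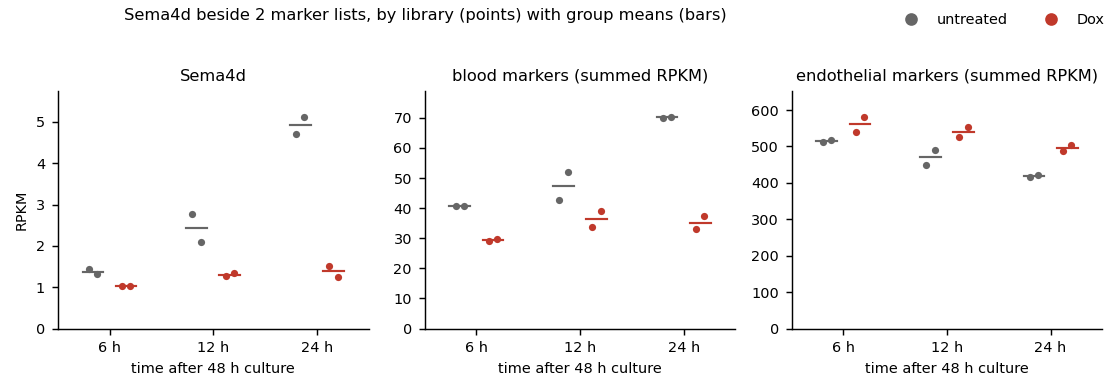
RPKM of Sema4d and summed RPKM of 10 blood and 10 endothelial markers at 6, 12 and 24 h, with 1 point for each library (grey, untreated; red, Dox) and a bar at each group mean. Sema4d and the blood markers climb in untreated cells and stay low with Dox, and the endothelial markers are higher with Dox at each hour.

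Sema7a, a GPI-anchored semaphorin that binds plexin C1 and integrins, was low in level and rose at 24 h (ENSMUSG00000038264, chromosome 9, 57940113 to 57962864, plus strand). It stood at 3.58 and 4.08 CPM untreated against 3.74 and 4.11 CPM with Dox at 6 h, 3.77 and 4.24 CPM untreated against 5.67 and 5.90 CPM with Dox at 12 h and 5.51 and 5.55 CPM untreated against 9.13 and 9.62 CPM with Dox at 24 h, with overlapping groups at 6 h only. In log2 terms the changes were 0.072 (adjusted p = 0.96), 0.50 (adjusted p = 0.073) and, at 24 h, 0.75 ± 0.16 (SE, adjusted p = 0.0010). Sema3c, a secreted semaphorin of the developing outflow tract, fell at 12 h from 9.33 and 10.1 to 6.18 and 7.64 CPM, a change of -0.53 ± 0.14 (SE, adjusted p = 0.018). Its change was -0.020 (adjusted p = 0.99) at 6 h and -0.28 (adjusted p = 0.22) at 24 h, and the 12 h call was not met without Dox replicate 1 (-0.34) or untreated replicate 2 (-0.47) at adjusted p of 0.41 and 0.19. Sema5a, a membrane semaphorin with thrombospondin repeats, was called higher at 12 h although its groups overlapped, at 39.4 and 32.1 CPM untreated against 51.3 and 38.6 CPM with Dox. Its fold change there was 0.38 ± 0.11 (SE, adjusted p = 0.034), and it came to 0.68 in the deep libraries and -0.028 in the shallow ones. The Sema5a call was not met without Dox replicate 1 (0.14) or untreated replicate 2 (0.22) at adjusted p of 0.69 and 0.46. The leading semaphorins by level, Sema4c and Sema3e, were not called, with 24 h fold changes of -0.019 (adjusted p = 0.94) and 0.061 (adjusted p = 0.68).

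None of the 8 tested plexins was called with Dox at any hour by edgeR with all 12 libraries. At an unadjusted p under 0.05 there were 1 at 6 h, 1 at 12 h and 3 at 24 h, and DESeq2 and limma called 0 at each hour. Plxnd1, the endothelial plexin and receptor of Sema3e (ENSMUSG00000030123, chromosome 6, 115954811 to 115995005, minus strand), was at 559 and 565 CPM untreated against 578 and 599 CPM with Dox at 6 h, 645 and 685 CPM untreated against 682 and 699 CPM with Dox at 12 h and 713 and 683 CPM untreated against 718 and 793 CPM with Dox at 24 h. Its Dox libraries were above the untreated ones at 6 and 24 h, and the groups overlapped at 12 h. These gave fold changes of 0.067 (adjusted p = 0.75), 0.054 (adjusted p = 0.62) and 0.11 (adjusted p = 0.19). Without Dox replicate 1 the 24 h value of Plxnd1 was called in edgeR (0.19, adjusted p = 0.038). The fold changes of Plxna1, a receptor for class 3 and class 6 semaphorins, were 0.073 (adjusted p = 0.73), -0.073 (adjusted p = 0.49) and 0.043 (adjusted p = 0.73).

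The neuropilins, which pair with plexins to receive class 3 semaphorins and also bind VEGF, did move. Of 14 listed co-receptors and partners 12 were tested, with 0 called at 6 h by edgeR, DESeq2 or limma (2 at an unadjusted p under 0.05), 2 higher at 12 h, and 2 higher and 2 lower at 24 h. Nrp2, the neuropilin of veins and lymphatics, stood at 447 and 484 CPM untreated against 559 and 553 CPM with Dox at 12 h and 465 and 455 CPM untreated against 617 and 703 CPM with Dox at 24 h. Its fold changes were 0.26 ± 0.054 (SE, adjusted p = 0.0030) and 0.52 ± 0.054 (SE, adjusted p = 2.4e-08). Nrp1 fell slightly at 24 h, with a change of -0.15 ± 0.048 (SE, adjusted p = 0.043), and the integrin Itga1, part of the Sema7a receptor, rose by 0.40 ± 0.073 (SE, adjusted p = 6.2e-04) at 12 h and 0.29 ± 0.074 (SE, adjusted p = 0.0080) at 24 h. Tyrobp, an adaptor of myeloid cells, had -1.90 ± 0.23 (SE, adjusted p = 4.3e-07) at 24 h. The Nrp1 call was not met without untreated replicate 1 (-0.15), Dox replicate 1 (-0.14), untreated replicate 2 (-0.15) or Dox replicate 2 (-0.15) at adjusted p of 0.18 to 0.22, nor that of Itga1 at 24 h without untreated replicate 1 (0.27) or untreated replicate 2 (0.31) at adjusted p of 0.081 and 0.053.

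Of the 25 genes that act below plexins, 2 rose and 0 fell at 6 h, 1 rose and 1 fell at 12 h, and 3 rose and 2 fell at 24 h. The leading one was Dpysl3, a cytoskeletal protein of the CRMP family phosphorylated on semaphorin signalling, which rose by 0.30 ± 0.057 (SE, adjusted p = 0.0019), 0.72 ± 0.057 (SE, adjusted p = 4.4e-10) and 0.71 ± 0.058 (SE, adjusted p = 1.8e-10) in order of hour. Dpysl3 stood at 152 and 152 CPM untreated against 244 and 254 CPM with Dox at 24 h. Arhgef12, an exchange factor bound by B plexins, rose by 0.20 (adjusted p = 0.045) at 6 h and 0.19 (adjusted p = 0.014) at 24 h. The GTPase gene Rap1b fell at 12 and 24 h, with changes of -0.33 (adjusted p = 0.0014) and -0.33 (adjusted p = 6.6e-04). The kinase gene Fes, best known in myeloid cells, fell at 24 h, with -0.52 (adjusted p = 6.9e-04). Mical2, an actin-oxidising enzyme, rose by 0.20 (adjusted p = 0.015) at 24 h. At 6 h the calls were not met for Dpysl3 without untreated replicate 1 (0.30, adjusted p = 0.057), or for Arhgef12 without untreated replicate 1 (0.14), Dox replicate 1 (0.17), untreated replicate 2 (0.24) or Dox replicate 2 (0.21) at adjusted p of 0.078 to 0.48. At 24 h they were not met for Arhgef12 without untreated replicate 1 (0.15) or Dox replicate 2 (0.16) at adjusted p of 0.21 and 0.16, for Fes without Dox replicate 1 (-0.38) or untreated replicate 2 (-0.41) at adjusted p of 0.057 and 0.062, or for Mical2 without untreated replicate 1 (0.15) or Dox replicate 2 (0.19) at adjusted p of 0.25 and 0.10.

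In the Slit and Robo families 1 gene was called with Dox. None of the 3 Slits was called at any hour, by edgeR, DESeq2 or limma, and 0, 0 and 1 of them were at an unadjusted p under 0.05 at 6, 12 and 24 h. Slit2 was at 135 and 133 CPM untreated against 118 and 128 CPM with Dox at 24 h, a change of -0.13 (adjusted p = 0.15), and Slit3 at 87.4 and 87.4 CPM untreated against 81.0 and 86.0 CPM with Dox, a change of -0.070 (adjusted p = 0.58). Robo1 (ENSMUSG00000022883, chromosome 16, 72663149 to 73046095, plus strand) rose at 24 h, from 46.3 and 48.6 to 57.3 and 63.0 CPM, by 0.33 ± 0.074 (SE, adjusted p = 0.0023). Its changes at 6 and 12 h were -0.070 (adjusted p = 0.86) and 0.080 (adjusted p = 0.61). Robo4, the endothelial Robo receptor (ENSMUSG00000032125, chromosome 9, 37401897 to 37414023, plus strand), was at 31.0 and 32.0 CPM untreated against 32.0 and 34.6 CPM with Dox at 6 h, 29.7 and 33.7 CPM untreated against 28.8 and 32.3 CPM with Dox at 12 h and 30.2 and 29.4 CPM untreated against 36.1 and 33.7 CPM with Dox at 24 h. Its groups did not overlap at 24 h, but the fold changes of 0.091 (adjusted p = 0.83), -0.077 (adjusted p = 0.69) and 0.23 (adjusted p = 0.088) were not called. Robo3 lies next to Robo4 on the opposite strand and held few reads, at most 32 in a library.

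Among 22 tested partners and effectors of Slit and Robo, 0 were called at 6 h by edgeR, DESeq2 or limma (6 at an unadjusted p under 0.05), 2 rose and 1 fell at 12 h, and 3 rose and 2 fell at 24 h. Srgap2, a protein that binds Robo tails, rose by 0.20 (adjusted p = 0.020) and 0.17 (adjusted p = 0.033) at 12 and 24 h, and the kinase gene Abl2 rose by 0.19 (adjusted p = 0.032) at 12 h. The adaptor gene Nck1 fell at 12 h, with -0.30 (adjusted p = 0.019). At 24 h Flrt2, an adhesion protein that binds Unc5 receptors, rose by 0.31 ± 0.060 (SE, adjusted p = 4.4e-04). Gpc1, a heparan sulfate proteoglycan that binds Slits, fell, with -0.42 ± 0.083 (SE, adjusted p = 5.3e-04), as did the kinase gene Pak1, with -0.50 ± 0.12 (SE, adjusted p = 0.0064). At 12 h the calls were not met for Srgap2 without untreated replicate 1 (0.21), Dox replicate 1 (0.21), untreated replicate 2 (0.19) or Dox replicate 2 (0.20) at adjusted p of 0.062 to 0.11, for Abl2 without untreated replicate 1 (0.14) or Dox replicate 1 (0.17) at adjusted p of 0.29 and 0.25, or for Nck1 without untreated replicate 1 (-0.26), Dox replicate 1 (-0.31) or Dox replicate 2 (-0.29) at adjusted p of 0.086 to 0.13. At 24 h they were not met for Srgap2 without Dox replicate 1 (0.20), untreated replicate 2 (0.13) or Dox replicate 2 (0.16) at adjusted p of 0.056 to 0.31, for Gpc1 without Dox replicate 1 (-0.28, adjusted p = 0.066), or for Pak1 without untreated replicate 1 (-0.36) or Dox replicate 2 (-0.35) at adjusted p of 0.15 and 0.13.

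Unc5b, the most abundant member of all, rose by a small amount at 24 h (ENSMUSG00000020099, chromosome 10, 60762610 to 60831581, minus strand). It stood at 641 and 680.2 CPM untreated against 672 and 654 CPM with Dox at 6 h, where the groups overlapped, 666 and 678 CPM untreated against 728 and 769.8 CPM with Dox at 12 h and 694 and 688 CPM untreated against 781 and 857 CPM with Dox at 24 h. The estimates were 0.0057 (adjusted p = 0.99), 0.16 (adjusted p = 0.063) and, at 24 h, 0.25 ± 0.051 (SE, adjusted p = 0.0010). The 24 h call was not met without Dox replicate 2 (0.19, adjusted p = 0.065). Unc5c, another repulsive netrin receptor, fell at 12 h from 89.5 and 83.5 to 78.0 and 65.9 CPM, a change of -0.25 ± 0.074 (SE, adjusted p = 0.039). Its changes were -0.23 (adjusted p = 0.16) at 6 h and -0.17 (adjusted p = 0.18) at 24 h, and the 12 h call was not met without untreated replicate 1 (-0.19), untreated replicate 2 (-0.30) or Dox replicate 2 (-0.14) at adjusted p of 0.061 to 0.41.

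Netrins were low in level, and 2 of the 3 tested rose with Dox. Ntn4, a basement membrane netrin made by endothelium, was at 3.65 and 4.97 CPM untreated against 4.09 and 2.94 CPM with Dox at 6 h, 6.05 and 4.42 CPM untreated against 8.19 and 7.96 CPM with Dox at 12 h and 10.2 and 8.83 CPM untreated against 13.7 and 13.6 CPM with Dox at 24 h. Its fold change was -0.29 (adjusted p = 0.72) at 6 h, 0.68 ± 0.17 (SE, adjusted p = 0.014) at 12 h and 0.54 ± 0.16 (SE, adjusted p = 0.019) at 24 h. These calls were not met without Dox replicate 1 (0.67) or untreated replicate 2 (0.42) at adjusted p of 0.12 and 0.36 at 12 h, or without Dox replicate 1 (0.55) or untreated replicate 2 (0.43) at adjusted p of 0.080 and 0.26 at 24 h. Ntn3 rose at 24 h from 19.4 and 17.8 to 26.2 and 20.3 CPM, by 0.36 ± 0.10 (SE, adjusted p = 0.017), with 0.042 (adjusted p = 0.95) and 0.17 (adjusted p = 0.35) at the earlier hours. That call was not met without Dox replicate 1 (0.15) or untreated replicate 2 (0.30) at adjusted p of 0.51 and 0.23. Ntn3 shares its strand and part of its position with Tbc1d24, so its counts are uncertain. Of 15 tested netrin partners and effectors, 0 were called at 6 and 12 h by edgeR, DESeq2 or limma, with 3 and 1 at an unadjusted p under 0.05, and at 24 h the exchange factor genes Trio and Dock1 rose, by 0.18 (adjusted p = 0.025) and 0.24 (adjusted p = 0.025). The Trio call was not met without untreated replicate 1 (0.15), Dox replicate 1 (0.18), untreated replicate 2 (0.23) or Dox replicate 2 (0.20) at adjusted p of 0.054 to 0.25, nor that of Dock1 without untreated replicate 1 (0.20), untreated replicate 2 (0.29) or Dox replicate 2 (0.15) at adjusted p of 0.059 to 0.39. The netrin receptor gene Dcc had too few reads to be tested.

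Whether the Dox effect changed between hours was tested as a difference of log2 fold changes. From 6 to 12 h, 1 of 55 members was called, Sema5a at 0.72 ± 0.17 (SE, adjusted p = 0.044), where 0.417% of all tested genes were called (0.195% higher and 0.222% lower). The value follows fold changes of -0.35 at 6 h and 0.38 at 12 h, and at 24 h it was -0.19. It was not met without 6 h untreated replicate 1 (0.74), 12 h Dox replicate 1 (0.50), 6 h untreated replicate 2 (0.74), 6 h Dox replicate 2 (0.51) or 12 h untreated replicate 2 (0.56) at adjusted p of 0.099 to 0.56. From 12 to 24 h, 1 member was called against 1.21% of all tested genes (0.189% higher and 1.02% lower), Sema4d at -0.92 ± 0.18 (SE, adjusted p = 0.0041), and this was not met without 12 h untreated replicate 2 (-0.71) or 24 h untreated replicate 2 (-0.85) at adjusted p of 0.095 and 0.052.

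From 6 to 24 h, 2 members were called against 2.08% of all tested genes (0.626% higher and 1.45% lower). Sema4d had -1.39 ± 0.19 (SE, adjusted p = 2.4e-05), and Robo1 had 0.40 ± 0.11 (SE, adjusted p = 0.044). The Robo1 call was not met without 6 h untreated replicate 1 (0.46), 24 h untreated replicate 1 (0.37), 6 h untreated replicate 2 (0.39), 6 h Dox replicate 2 (0.35), 24 h untreated replicate 2 (0.46) or 24 h Dox replicate 2 (0.35) at adjusted p of 0.072 to 0.25. For the other 53 members the test did not show that the effect at 24 h differed from that at 6 h. The partner Nrp2 was called there, at 0.41 ± 0.077 (SE, adjusted p = 0.0016).

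Guidance genes also changed with time in culture without Dox. These comparisons use the same untreated libraries as the Dox comparisons, so the values are given side by side and no relation between them was computed. From 6 to 12 h, 14 members rose and 2 fell, 29.1% of those tested, where 7.46% of all tested genes were called (4.39% higher and 3.07% lower). The median of the members was 0.17 beside 0.0021 for all tested genes. From 12 to 24 h, 17 rose and 3 fell, 36.4% against 22.4% of all tested genes (12.2% higher and 10.2% lower), with medians of 0.15 and 0.0061. The libraries of both hours did not overlap for 34 of the 55 tested members in the earlier interval and 39 of 55 in the later one, where 49.0% and 60.5% of all tested genes did not overlap.

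From 6 to 12 h the smallest adjusted p-values were those of Sema3g, which rose by 0.74 ± 0.087 (SE, adjusted p = 1.3e-06), Plxnb2, the widely expressed B plexin, by 0.34 ± 0.052 (SE, adjusted p = 6.2e-05), Sema4d by 0.77 ± 0.13 (SE, adjusted p = 2.2e-04), Slit2 by 0.32 ± 0.059 (SE, adjusted p = 4.9e-04) and Epha7 by 0.42 ± 0.084 (SE, adjusted p = 0.0018). Plxnb2 stood at 175 and 185 CPM at 6 h, 234 and 221 CPM at 12 h and 290.1 and 295 CPM at 24 h, without overlap between hours. Slit2 stood at 85.2 and 84.9, 106 and 107 and 135 and 133 CPM, also without overlap. Ntn3 and Sema3e were the 2 members that fell, with changes of -0.40 (adjusted p = 0.0089) and -0.23 (adjusted p = 0.037). The Ntn3 call was not met without 6 h untreated replicate 1 (-0.41), 12 h untreated replicate 1 (-0.37) or 6 h untreated replicate 2 (-0.39) at adjusted p of 0.056 to 0.082, and the Sema3e call without 6 h untreated replicate 1 (-0.20), 12 h untreated replicate 1 (-0.19), 6 h untreated replicate 2 (-0.25) or 12 h untreated replicate 2 (-0.28) at adjusted p of 0.062 to 0.25.

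From 12 to 24 h the smallest adjusted p-values were those of Sema4d at 1.06 ± 0.12 (SE, adjusted p = 5.2e-08), Plxna4, a receptor of Sema3a, at 0.77 ± 0.094 (SE, adjusted p = 4.6e-07), Efnb1 at 0.55 ± 0.073 (SE, adjusted p = 1.8e-06), Plxnb2 at 0.36 ± 0.051 (SE, adjusted p = 4.4e-06) and Sema5a at 0.77 ± 0.11 (SE, adjusted p = 5.1e-06). Antisense genes lie across Plxna4, Epha7, Ntn4, Unc5c and Sema3e, and without the strand setting of the counting the values of these 5 genes are uncertain. The 3 members that fell were Unc5c, with -0.50 ± 0.076 (SE, adjusted p = 1.3e-05), Ntn3, with -0.41 (adjusted p = 0.0033), and Efna1, with -0.37 (adjusted p = 0.0060). The Ntn3 call was not met without 12 h untreated replicate 2 (-0.37) or 24 h untreated replicate 2 (-0.35) at adjusted p of 0.065 and 0.091, and the Efna1 call without 24 h untreated replicate 1 (-0.32) or 12 h untreated replicate 2 (-0.29) at adjusted p of 0.075 and 0.13. Unc5c went from 89.5 and 83.5 to 59.2 and 62.2 CPM. Ephb1 had the largest fold change of the called members in this interval, 1.29 ± 0.40 (SE, adjusted p = 0.019), at the low level of 0.855 and 0.696 CPM at 12 h and 2.36 and 1.52 CPM at 24 h, and it was not called without 24 h untreated replicate 1 (1.00) or 12 h untreated replicate 2 (1.11) at adjusted p of 0.17 and 0.21. It is named here after its values were seen. By family, plexins had 3 of 8 higher and 0 lower in each interval, and the Eph receptors had 4 of 9 higher and 0 lower in each. Without certain single libraries, Ephb2, Ephb3 and Ephb6 were not called in the first interval, nor Epha2, Epha7 and Ephb1 in the second. Semaphorins had 3 higher and 1 lower of 17 in the first interval and 5 higher in the second. Of those higher, Sema5a in the first and Sema3b, Sema3c and Sema4b in the second were likewise not called without certain single libraries. Robo receptors had 0 of 4 called and then Robo2, which rose by 0.54 (adjusted p = 4.6e-04) and was not called without 24 h untreated replicate 2 (0.40, adjusted p = 0.052). Over the same hours the blood markers had 3 of 10 and then 8 of 10 higher, and the endothelial markers 2 of 10 and then 5 of 10 lower, with 1 higher in the later interval, and of the mesenchyme and muscle markers 2 were higher and 2 lower and then 4 higher and 1 lower. The part of these cell types in the course of the guidance genes was not tested.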

How the data were processed

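RNA-seq libraries from 6 groups of 2 were analysed. The authors deposited read counts per gene and RPKM values for the same 41128 genes on GRCm38 coordinates, per the file headers. The submitters' processing notes name edgeR 3.8.5, R 3.1.0, SAMtools 0.1.19, Bowtie2 2.21 and bcl2fastq 2.16.0.10. How reads were assigned to genes, whether strand was used, and which annotation was taken are not given in the sources used.

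The deposited counts were tested with edgeR 4.0.16 in R 4.3.3: all 12 libraries in 1 fit with 1 term per group, filterByExpr (15347 genes kept), TMM scaling, the quasi-likelihood test with 6 residual degrees of freedom and Benjamini-Hochberg adjustment over all tested genes. The SE of a fold change is its size divided by the square root of the F statistic. The biological coefficient of variation was 4.71%. CPM use TMM-scaled library sizes. Levels between genes use the deposited RPKM. Library totals ran from 13485804 to 35250074 reads. Replicates of a group differed by more than sampling noise (chi-square per degree of freedom 2.63 to 4.61), and each was counted as 1 library. A spread of this kind does not tell separate cultures from technical repeats.

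Named with values were called members, members with a known role in vessels or blood, the 2 most abundant of each family, the 5 smallest adjusted p-values per untreated comparison, and up to 4 called genes per partner list and comparison. The members and lists were chosen with earlier results of these data known. Alternatives were upper-quartile and RLE scaling, a filter of 1 CPM in 4 libraries or none, DESeq2 1.42.0, limma 3.58.1 on log2(RPKM + 0.1), only the 4 libraries of an hour, a replicate block, each library left out, and, chosen after seeing the data, a block for deep or shallow library. Promoter letters are from RefSeq (GRCm38.p6), and Sema6a is given without position or promoter.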

Additional observations from a re-analysis of the deposited data

Results flagged for a closer look

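For 3 members the Dox effect was called as different between hours, tested as a difference of log2 fold changes in edgeR. Sema4d changed by -1.39 ± 0.19 (SE, adjusted p = 2.4e-05) from 6 to 24 h and by -0.92 ± 0.18 (SE, adjusted p = 0.0041) from 12 to 24 h, with both Dox libraries below both untreated ones at every hour. Sema5a changed by 0.72 ± 0.17 (SE, adjusted p = 0.044) from 6 to 12 h. Robo1 changed by 0.40 ± 0.11 (SE, adjusted p = 0.044) from 6 to 24 h. The Sema5a and Robo1 values and that of Sema4d from 12 to 24 h were not called without certain single libraries, as given with each of them above. DESeq2 and limma called neither the Sema5a nor the Robo1 change, and limma did not call that of Sema4d from 12 to 24 h. The Sema4d change from 6 to 24 h was called under every alternative. Groups of 2 libraries are too small to look for a library that stands apart.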

How the results depend on the processing

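Of the called members, 1 of 4 at 6 h, 3 of 12 at 12 h and 7 of 15 at 24 h were called under every alternative: Efnb2 at each hour, Sema3g and Sema4d at 12 and 24 h, and Efnb1, Efna1, Sema7a and Robo1 at 24 h. For the change of the Dox effect this held for 0 of 1, 0 of 1 and 1 of 2 members (6 to 12, 12 to 24 and 6 to 24 h), and for 6 of 16 and 9 of 20 in the untreated intervals.

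Leaving out each library in turn gave 1 to 5 members at 6 h (86 to 180 of all genes), 4 to 10 at 12 h (423 to 754) and 10 to 15 at 24 h (1084 to 1497), 0 to 2, 0 to 2 and 1 to 4 for the changes from 6 to 12, 12 to 24 and 6 to 24 h (13 to 174, 65 to 274 and 175 to 280), and 8 to 12 and 12 to 19 for the untreated intervals (401 to 698 and 2103 to 2604). These fits have fewer samples.

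limma on log2(RPKM + 0.1) called 1, 3 and 10 members at 6, 12 and 24 h (78, 354 and 1250 of all genes), 0, 0 and 1 for the changes from 6 to 12, 12 to 24 and 6 to 24 h (4, 6 and 139) and 6 for untreated 6 to 12 h (531). At 24 h it did not call Epha4, Epha7, Ntn3, Ntn4 or Sema6a (adjusted p from 0.050 to 0.18). DESeq2 did not call Sema3g at 6 h (0.34, adjusted p = 0.059), Unc5c (-0.25, adjusted p = 0.069), Sema3c (-0.52, adjusted p = 0.053) or Sema5a (0.35, adjusted p = 0.32) at 12 h, or Epha7 (0.25, adjusted p = 0.071) or Ntn4 (0.54, adjusted p = 0.079) at 24 h, and called Unc5b at 12 h (0.16, adjusted p = 0.042). Sema3g at 6 h was also not called with upper-quartile scaling (0.34, adjusted p = 0.051) or with only the libraries of that hour (0.35, adjusted p = 0.061), nor Epha7 at 24 h with no filter (0.24, adjusted p = 0.072). The partner gene Arhgef12 was not called at 6 h with RLE or upper-quartile scaling, limma, the hour's 4 libraries or the depth block. Rgs3 at 12 h was not called with no filter, DESeq2 or limma, nor Dok2 at 12 h with DESeq2 or limma. With no filter or with limma, Srgap2 and Trio were not called at 24 h. limma also did not call Sla or Dpysl3 at 6 h or Nrp2, Spry4, Rap1b, Srgap2, Abl2 or Nck1 at 12 h. At 24 h it did not call Nrp1, Itga1, Arhgef12, Mical2, Gpc1 or Dock1.

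For the change from 6 to 12 h, 0 members were called with upper-quartile scaling, the stricter filter, DESeq2 or the depth block, and 2 with no filter (255 of all genes). From 12 to 24 h, 2 were called with no filter (356 of all genes), and from 6 to 24 h, 5 with no filter and 1 with DESeq2. The cause was not tested.

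The replicate number as a block gave 4, 13 and 15 members at 6, 12 and 24 h (249, 1071 and 1722 of all genes) and 2 for the change from 12 to 24 h. It called Unc5b at 12 h (0.16, adjusted p = 0.047). Deviations of same-numbered libraries correlated at -0.027 to 0.070 over 15 pairs of groups, 0 of them above 0.1. Correlations over all tested genes cannot show what the number stands for, and a shared culture or batch is not excluded. The depth block, chosen after seeing the data, gave 4, 12 and 15 members (238, 1016 and 1656 of all genes).

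Among the named genes refitted under the alternatives, the Dox fold changes that turned sign were those of genes not called at that hour: at 6 h Unc5b (-0.00520 with upper-quartile scaling, -0.0132 with limma, -0.0446 to 0.0397 without single libraries), Sema7a (-0.0485 to 0.136 without single libraries), Efna1 (-0.0234 to 0.358 without single libraries) and Epha2 (-0.0498 to 0.000709 without single libraries), at 12 h Epha2 (-0.0589 to 0.138 without single libraries), Robo4 (-0.146 to 0.0300 without single libraries) and Sema6d (-0.000449 with no filter, -0.0590 to 0.0741 without single libraries), and at 24 h Sema6d (-0.0121 with limma, -0.0448 to 0.0554 without single libraries). Each scaling moved the median of all genes by less than 0.1.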
